A study of Mus musculus with 4 samples.

Results

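The 10 genes described here encode subunits of condensin and cohesin, the ring-shaped SMC (structural maintenance of chromosomes) complexes that fold and hold chromosomes. They were taken by name from the gene count table of P7 mouse hearts, 10 of 24454 genes in all, and all 10 passed the filter on low counts that left 14266 genes. The 8 genes *Smc2*, *Smc4*, *Ncapd2*, *Ncapg*, *Ncaph*, *Ncapd3*, *Ncapg2* and *Ncaph2* make up 2 condensin complexes, and *Smc3* and *Rad21* belong to cohesin. Whole hearts were compared between 2 libraries of control mice (Ctrl, libraries WH7 and WH8) and 2 libraries of *miR-128* overexpressing mice (miR-128OE, libraries WH9 and WH10), all at postnatal day 7, and the libraries of each group are called library 1 and library 2 in that order. All mice were kept on a C57BL/6 background and carried miR-128TetRE, a tetracycline-responsive *miR-128* gene placed in the Rosa26 locus, which Ctrl mice carried alone. The miR-128OE mice also carried α-MHC-tTA, in which the α-myosin heavy chain promoter of cardiomyocytes (CMs) drives the tetracycline transactivator (tTA). In this system tTA switches *miR-128* on in CMs once doxycycline is withdrawn. The sources used here do not give the doxycycline schedule of these P7 mice. No mouse with tTA alone was among the groups, and the sources used here do not say whether a library came from 1 heart or from pooled hearts, so the p-values measure only the spread between these libraries.

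Each condensin holds an SMC2 and SMC4 pair, whose ATPase heads are bridged by a kleisin subunit that also recruits 2 HEAT-repeat subunits. Condensin I uses the kleisin NCAPH with NCAPD2 and NCAPG, acts on chromosomes after the nuclear envelope breaks down and narrows the mitotic chromatid, whereas condensin II uses NCAPH2 with NCAPD3 and NCAPG2, is nuclear through the cell cycle and shortens the chromosome axis. Cohesin closes a ring of SMC1A, SMC3 and the kleisin RAD21 with a STAG subunit. It holds sister chromatids together until anaphase and extrudes chromatin loops in interphase, also in cells that no longer divide. In the mouse heart, CMs leave the cell cycle during the first days after birth, and the comparison asks how *miR-128* in CMs bears on this period.

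Because *miR-128* was the agent, the 3′UTRs of the members were searched for its seed match. The mature sequence of miR-128-3p is encoded on both chr1:128202404-128202424 (plus strand) and chr9:112118644-112118664 (minus strand) of GRCm38, and is printed here as RefSeq gives it, with the seed (bases 2 to 8) in capitals.
miR-128-3p: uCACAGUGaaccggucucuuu
A match of 7 or 8 bases (CACTGTG, or ACTGTGA, read on the transcript strand) was found in the annotated 3′UTR of 2 of the 10 members, against 31.0% of 13463 tested genes with an annotated 3′UTR. The 2 matches are shown with their flanks, with the matched bases in capitals.
Ncapd3, chr9:27095045-27095069 (plus strand), from base 276 of a 3′UTR of 531 bases: aagctatttatACTGTGAtactcta
Ncaph2, chr15:89371683-89371707 (plus strand), from base 242 of a 3′UTR of 1375 bases: cagggcaagaCACTGTGgaaggcag
Neither is the 8-base form CACTGTGA, which 6.03% of the tested genes hold. With matches of 6 bases (ACTGTG) included, *Ncapg2*, *Smc3* and *Rad21* were added, giving 5 of 10 members against 47.2% of genes. *Smc2*, *Smc4*, *Ncapd2*, *Ncapg* and *Ncaph* held none of these letters in the 3′UTR of the transcript used. A match is a description of the sequence, not a bound site.

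The start regions of the members were also read, since genes of the G2 and M phases often share promoter elements. RefSeq windows of 300 bases (250 before and 50 after the start, GRCm38.p6) covered 8 members in 9 windows, *Ncapd3* having 2. Smc4 and Rad21 had no entry. The letters TTTGAA, the core of the cell cycle genes homology region (CHR) to which MuvB complexes bind, were found on either strand in 5 of the 9 windows, and in 17.9% of 32851 windows of all genes. CCAAT, the letters bound by NF-Y, was found in 3 of the 9 windows and in 37.4% of all, and an E2F-type element (TTTGGCGC or TTTCCCGC) in *Ncapd2*, *Ncapg* and *Ncapg2*. TTTGGCGC was in 0.514% and TTTCCCGC in 1.07% of all windows, on either strand. No match overlapped another. Below are the bases that precede the outermost annotated start in 3 windows with a CHR match, and in *Ncaph2*, which held none of these letters, with every match in capitals and positions counted from the RefSeq start (the base before it is -1).
Smc2, chr4:52439071-52439220 (plus strand), positions -150 to -1: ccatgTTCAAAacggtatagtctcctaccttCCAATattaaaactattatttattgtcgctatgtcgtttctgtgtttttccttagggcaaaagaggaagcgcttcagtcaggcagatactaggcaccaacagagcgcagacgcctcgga
Ncapd2, chr6:125191702-125191836 (minus strand), positions -250 to -116: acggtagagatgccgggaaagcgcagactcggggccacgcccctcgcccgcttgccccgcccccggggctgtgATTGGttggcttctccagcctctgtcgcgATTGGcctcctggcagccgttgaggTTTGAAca
Ncapg, chr5:45669769-45669918 (plus strand), positions -156 to -7: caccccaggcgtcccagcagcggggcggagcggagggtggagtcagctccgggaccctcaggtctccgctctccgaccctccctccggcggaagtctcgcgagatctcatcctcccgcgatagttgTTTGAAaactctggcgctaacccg
Ncaph2, chr15:89355569-89355718 (plus strand), positions -150 to -1: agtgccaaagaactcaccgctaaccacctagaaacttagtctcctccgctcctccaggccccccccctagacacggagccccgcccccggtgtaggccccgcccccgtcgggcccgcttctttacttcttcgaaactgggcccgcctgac
The capitals in *Smc2* are TTTGAA on the minus strand at -145 and CCAAT at -119, and a second TTTGAA lies past the start. *Ncapd2* shows CCAAT on the opposite strand at -177 and -148 and TTTGAA at -123, with CCAAT at -48 and TTTGGCGC at -8 nearer the start. *Ncapg* shows TTTGAA at -30. Outside its printed bases it held CCAAT at -176 and TTTCCCGC at 32, both on the opposite strand. In *Ncapg2* TTTGAA lay at -18, and TTTCCCGC on the opposite strand at -249 and 1. The fifth window with TTTGAA was the second of *Ncapd3* (chr9:27060166-27060465), at a start inside the gene, with the match at -249. The windows of *Ncaph*, *Ncaph2* and *Smc3*, and the first of *Ncapd3*, held none of the 4 strings. Only these 4 strings were searched, so a window without them may still hold a variant form of an element. Whether any of these letters is used in the heart was not tested.

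Library totals ranged from 8096870 to 14359838 counts, and the quasi-likelihood test of edgeR, adjusted by Benjamini-Hochberg over 14266 genes, called 2143 genes lower (15.0%) and 2347 higher (16.5%) in miR-128OE, 31.5% in all, at an adjusted p under 0.05. Without miR-128OE library 1 these counts were 667 and 897, and without miR-128OE library 2 they were 1020 and 1265. A normalized count below is a count scaled by TMM to the mean effective library size, and over all tested genes the log2 fold change had a median of -0.01. When scaled by total counts alone this median was -0.11, and 35.3% of the called genes were higher in place of 52.3%. Of the miR-128 precursor genes, *Mir128-1* had 0 counts in all 4 libraries, and *Mir128-2* had 0 and 0 in Ctrl and 2 and 10 in miR-128OE. Condition coincided with sex, since *Xist*, the RNA of the inactive X, had 13299 and 16026 normalized counts in Ctrl and 93.1 and 111 in miR-128OE, so condition and sex cannot be told apart. Cell type markers differed too, and their part in the results was not tested. Summed over 6 CM markers, all detected, normalized counts were 466441 and 491289 in Ctrl and 630342 and 617638 in miR-128OE, with 1 gene called lower and 2 higher. The sums of 5 endothelial markers (15270 and 15331 against 17732 and 16399), 6 smooth muscle and pericyte markers (22108 and 20546 against 26416 and 30227) and 6 erythroid markers (460 and 321 against 853 and 769, with 4 globin genes at 0 throughout) were higher in both miR-128OE libraries, with 2, 2 and 1 genes called higher and 0, 1 and 0 called lower. The sum of 4 Schwann cell markers was lower (452 and 472 against 297 and 310, with 1 gene called in each direction). The sums of the fibroblast, leukocyte and epicardial markers overlapped between the groups, and none of these 16 genes was called by edgeR's quasi-likelihood test or by DESeq2. At an unadjusted p under 0.05 there were 0 fibroblast, 1 leukocyte and 2 epicardial genes, and the exact and likelihood ratio tests each called 0, 1 and 1.

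Condensin transcripts were lower in miR-128OE hearts. Of the 8 subunits, 5 were called lower (*Smc2*, *Smc4*, *Ncapd2*, *Ncapd3* and *Ncapg2*) and the other 3 were not called, and all 8 log2 fold changes were negative, with a median of -0.60. The background is 15.0% of genes called lower. Both miR-128OE libraries lay below both Ctrl libraries for 8 of 8 subunits, as they did for 34.4% of all genes tested. Summed over the 8 genes, the normalized counts were 7762 and 9068 in Ctrl and 5251 and 5331 in miR-128OE. In whole-heart RNA, fewer cells that express a gene and less of its RNA per cell cannot be told apart.

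**Figure D1:**
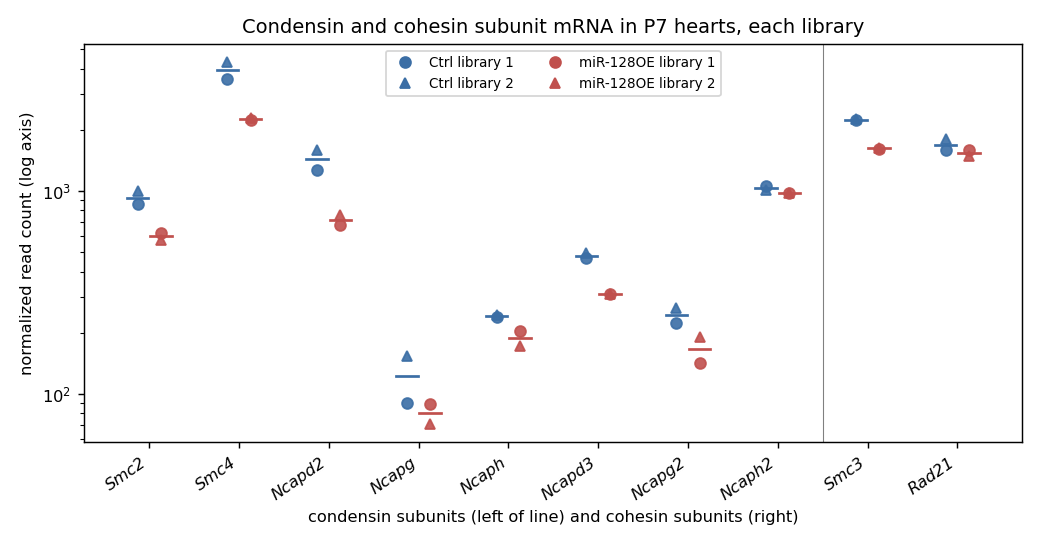
Normalized read count (log axis) of the 8 condensin and 2 cohesin subunits in each library, with Ctrl in blue and miR-128OE in red, circles for library 1, triangles for library 2 and a line at the mean of 2 libraries. *Smc4*, *Ncapd2*, *Smc2* and *Ncapd3* show a clear gap between the groups, *Ncapg* and *Ncaph2* nearly touch, and *Rad21* overlaps.

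The shared SMC pair fell in both miR-128OE libraries. *Smc4* (GeneID 70099, chromosome 3, 69004738 to 69034623), the larger of the pair by transcript level, had 3563 and 4314 normalized counts in Ctrl and 2234 and 2284 in miR-128OE. The 2 miR-128OE values were almost the same, and both were far below the lower Ctrl value. Its means were 3938 ± 531 and 2259 ± 35.3 (SD, n = 2), and the log2 fold change was -0.80 (SE 0.0993, 95% interval -1.02 to -0.58, adjusted p = 0.000505 by edgeR). *Smc2* (GeneID 14211, chromosome 4, 52439243 to 52488260), its obligate partner, had 860 and 994 in Ctrl and 621 and 574 in miR-128OE. Again the groups did not overlap. The log2 fold change of *Smc2* was -0.63 (SE 0.0991, 95% interval -0.85 to -0.41, adjusted p = 0.00163 by edgeR). Relative to exon length, *Smc4* transcripts outnumbered those of *Smc2* in each library, by 5.21 and 5.45 times in Ctrl and by 4.52 and 4.99 times in miR-128OE, although the proteins pair one to one.

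In condensin I, *Ncapd2* was lower, with the most negative log2 fold change of the 10 members. *Ncapd2* (GeneID 68298, chromosome 6, 125168007 to 125191701, minus strand) encodes the HEAT-repeat subunit that is phosphorylated by mitotic kinases and helps bring condensin I to chromosomes. Its normalized counts were 1262 and 1594 in Ctrl and 682 and 759 in miR-128OE. The higher miR-128OE library was well below the lower Ctrl library, and the mean in miR-128OE was 720 ± 54.1 against 1428 ± 235 (SD, n = 2). This gave a log2 fold change of -0.98 (SE 0.117, 95% interval -1.24 to -0.72, adjusted p = 0.000439 by edgeR), or 50.7% of the Ctrl level. It stayed called whichever library was left out, between -1.14 and -0.80.

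The other condensin I subunits were measured less firmly. *Ncapg* (GeneID 54392, chromosome 5, 45669919 to 45700546), the second HEAT-repeat subunit, had the fewest reads of the members, between 84 and 109 per library. Its normalized counts were 89.6 and 154 in Ctrl and 89.1 and 70.7 in miR-128OE, so that Ctrl library 1 and miR-128OE library 1 were nearly equal and the Ctrl libraries differed more between themselves than the groups did at their closest. The log2 fold change was -0.58 (SE 0.271, 95% interval -1.19 to 0.03, adjusted p = 0.133 by edgeR). It was -0.95 without Ctrl library 1 (adjusted p = 0.00541) and -0.17 without Ctrl library 2 (adjusted p = 0.634). Of the exon length of its protein-coding transcripts, 20.8% is shared with *Lcorl* on the opposite strand, which had 213 and 253 normalized counts in Ctrl and 268 and 239 in miR-128OE, and the sources used here do not give how strand was handled in the counting. *Ncaph* (GeneID 215387, chromosome 2, 127103809 to 127133954, minus strand) encodes the kleisin of condensin I. It had 240 and 245 normalized counts in Ctrl and 203 and 172 in miR-128OE, which do not overlap. Its log2 fold change of -0.37 (SE 0.140, 95% interval -0.69 to -0.06) missed the threshold after adjustment (adjusted p = 0.0695 by edgeR). With upper-quartile and total-count scaling the adjusted p by edgeR was 0.0462 and 0.0278, and no other alternative called it. By DESeq2 the adjusted p was 0.227. The log2 fold change was -0.48 without miR-128OE library 1 and -0.24 without miR-128OE library 2.

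For condensin II, the 2 HEAT-repeat subunits were lower and the kleisin was not called. *Ncapd3* (GeneID 78658, chromosome 9, 27030175 to 27095315), which has the 7-base *miR-128* match shown above, had 466 and 492 normalized counts in Ctrl and 311 and 309 in miR-128OE. The libraries of each group were close together and the gap between the groups was several times wider. The log2 fold change was -0.63 (SE 0.104, 95% interval -0.86 to -0.39, adjusted p = 0.00209 by edgeR). *Ncapg2* (GeneID 76044, chromosome 12, 116405402 to 116463731) had 224 and 266 in Ctrl and 142 and 191 in miR-128OE. These did not overlap, but the miR-128OE libraries differed by more than counting error, the ratio of library 2 to library 1 being 1.35 (95% exact binomial interval 1.09 to 1.67, counting error only). Its log2 fold change of -0.54 (SE 0.173, 95% interval -0.93 to -0.15, adjusted p = 0.0391 by edgeR) lost its call without miR-128OE library 1 (-0.34, adjusted p = 0.293), without Ctrl library 2 (-0.42, adjusted p = 0.0941) and by DESeq2 (adjusted p = 0.0741).

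*Ncaph2* (GeneID 52683, chromosome 15, 89355719 to 89372826), the condensin II kleisin, holds the second 7-base *miR-128* match. Its normalized counts were 1058 and 1011 in Ctrl and 970 and 972 in miR-128OE, lower in miR-128OE by a small margin. The log2 fold change was -0.09 (SE 0.0800, 95% interval -0.27 to 0.09, adjusted p = 0.413 by edgeR), an interval that lies above those of *Smc4*, *Ncapd2*, *Smc2* and *Ncapd3*. Of the *Ncaph2* exon length, 25.0% is shared with *Sco2* and 16.1% with *Tymp*, both on the opposite strand. *Sco2*, a mitochondrial copper chaperone gene, was listed at 0 counts in all 4 libraries, and 66.2% of its exon length is shared with *Ncaph2*, while *Tymp* had between 7 and 10 counts per library. Whether reads of *Sco2* were counted on *Ncaph2* was not tested, and the level of *Ncaph2* is uncertain for this reason.

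**Figure D2:**
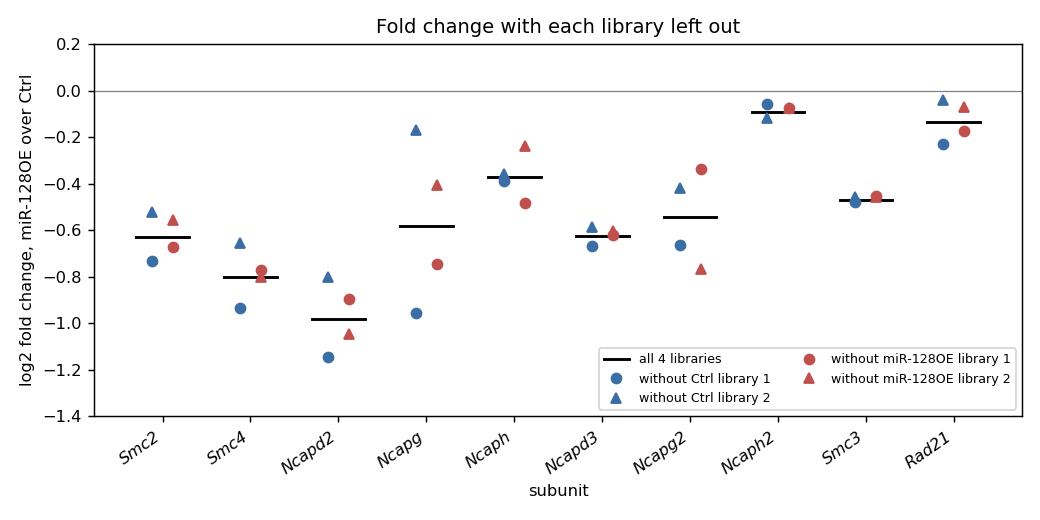
Log2 fold change (miR-128OE over Ctrl) of each subunit with all 4 libraries (black line) and with 1 library left out, in blue for a Ctrl library and red for a miR-128OE library. All values are below 0, those of *Smc3* and *Ncapd3* barely move, and those of *Ncapg* spread from -0.95 to -0.17.

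Members were also compared by their level per kilobase of exon, a normalized count divided by the exon length of protein-coding transcripts. In Ctrl hearts *Smc4* was highest with 907 ± 122 (SD, n = 2), followed by *Smc3* with 463 ± 4.38, *Rad21* with 400 ± 36.2, *Ncaph2* with 312 ± 10.1, *Ncapd2* with 302 ± 49.7 and *Smc2* with 170 ± 17.4. Below these stood *Ncaph* with 89.8 ± 1.29, *Ncapd3* with 87.1 ± 3.27, *Ncapg2* with 49.7 ± 5.98 and *Ncapg* with 32.9 ± 12.3. The neighbours *Ncaph2* and *Ncapd2*, and likewise *Ncaph* and *Ncapd3*, overlapped between libraries and cannot be ordered. In miR-128OE hearts the means were 520 ± 8.13 for *Smc4*, 363 ± 18.3 for *Rad21*, 334 ± 1.35 for *Smc3*, 293 ± 0.427 for *Ncaph2* and 152 ± 11.4 for *Ncapd2*. Thus *Ncapd2*, level with *Ncaph2* in Ctrl, lay far below it in miR-128OE. By this measure *Rad21* lay above *Smc3* in miR-128OE rather than below it, but their order in Ctrl depends on the exon length used. For *Smc3* this length was 4851 bases, against 5541 over all annotated transcripts, while for *Rad21* both were 4232.

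The balance between the 2 condensins was described by the summed level per kilobase of *Ncapd2*, *Ncapg* and *Ncaph* over that of *Ncapd3*, *Ncapg2* and *Ncaph2*. This ratio was 0.846 and 1.05 in Ctrl and 0.645 and 0.627 in miR-128OE. Both miR-128OE libraries were below both Ctrl libraries, and the means were 0.948 ± 0.143 and 0.636 ± 0.0128 (SD, n = 2), the latter 0.672 of the former, a description without a test. The sums are led by *Ncapd2* and *Ncaph2*, and the level of *Ncaph2* is uncertain as given above. With both kleisins left out, a choice made after seeing the data, the ratio was 2.24 and 2.64 in Ctrl and 1.97 and 1.89 in miR-128OE, a smaller difference (0.793 of Ctrl). With the geometric mean of each 3 subunits, which weights them equally, the ratio in miR-128OE was 0.864 of that in Ctrl. Pair by pair, *Ncapd2* over *Ncapd3* was 3.15 and 3.77 in Ctrl and 2.55 and 2.86 in miR-128OE, and *Ncaph* over *Ncaph2* was 0.279 and 0.298 in Ctrl and 0.258 and 0.217 in miR-128OE. Both pairs were lower in each miR-128OE library. *Ncapg* over *Ncapg2* overlapped between the groups, with 0.532 and 0.771 in Ctrl and 0.837 and 0.492 in miR-128OE.

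**Figure D3:**
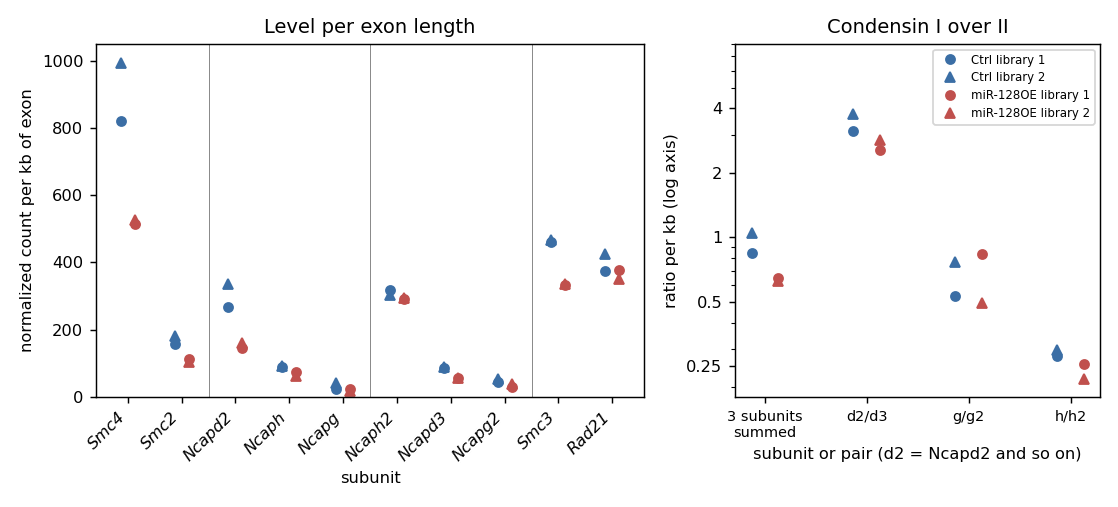
Left, normalized count per kilobase of exon of each subunit by library, with the SMC pair, condensin I, condensin II and cohesin separated by lines. Right, ratio of condensin I to condensin II per kilobase (log axis) for the 3 subunits summed and for each pair, where d2/d3 stands for *Ncapd2* over *Ncapd3* and likewise for the others; Ctrl is blue and miR-128OE red. The summed ratio is lower in both miR-128OE libraries, and the g/g2 pair overlaps.

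Of the 2 cohesin members, *Smc3* was lower and *Rad21* was not called, the background being again 15.0% lower. *Smc3* (GeneID 13006, chromosome 19, 53600398 to 53645833), whose acetylation locks the ring on sister chromatids, had 2231 and 2261 normalized counts in Ctrl and 1615 and 1624 in miR-128OE. Libraries of a group were nearly identical and the groups were far apart. The log2 fold change was -0.47 (SE 0.0748, 95% interval -0.64 to -0.30, adjusted p = 0.00171 by edgeR), or 72.1% of Ctrl. *Rad21* (GeneID 19357, chromosome 15, 51962240 to 51991747, minus strand), the kleisin that separase cuts at anaphase, had 1584 and 1801 in Ctrl and 1592 and 1483 in miR-128OE. Here the groups overlapped, and the log2 fold change was -0.14 (SE 0.0891, 95% interval -0.34 to 0.06, adjusted p = 0.273 by edgeR). *Rad21* over *Smc3* per kilobase was 0.814 and 0.913 in Ctrl and 1.13 and 1.05 in miR-128OE, higher in both miR-128OE libraries.

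The other somatic ring genes were *Smc1a*, *Stag1* and *Stag2*, of which 2 were called lower, beside 15.0% of all genes (median log2 fold change -0.28). *Smc1a*, the X-linked partner of *Smc3*, had 2392 and 2332 normalized counts in Ctrl and 1734 and 1850 in miR-128OE (log2 fold change -0.40, SE 0.0782, adjusted p = 0.00493 by edgeR). *Stag1*, one of the alternative STAG subunits, had 799 and 786 in Ctrl and 642 and 665 in miR-128OE (log2 fold change -0.28, adjusted p = 0.0319 by edgeR). Both were lower without overlap. *Stag2*, its X-linked paralogue, had 1183 and 1289 in Ctrl and 1153 and 1137 in miR-128OE and was not called (log2 fold change -0.11, adjusted p = 0.347 by edgeR). Neither *Smc1a* nor *Stag1* kept its call without miR-128OE library 1, and fewer of these genes were called without miR-128OE library 2. In both refits fewer of all genes were called lower too. The ratio *Smc3* over *Smc1a* per kilobase stayed between 0.849 and 0.938 in all 4 libraries. Of the meiotic subunits, *Rad21l* had 0 counts throughout. *Smc1b* had 10.1 and 14.1 normalized counts in Ctrl and 16.8 and 16.8 in miR-128OE (log2 fold change 0.51). *Stag3* had 68.6 and 82.0 against 65.3 and 58.9 (-0.27), and *Rec8* had 22.9 and 26.9 against 38.6 and 48.8 (0.83). Of the 3 that were tested, 0 were called by edgeR's quasi-likelihood test or by DESeq2. By the quasi-likelihood test 1, *Rec8*, had an unadjusted p under 0.05, and the exact and likelihood ratio tests each called 1.

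The list of cohesin regulators held 16 genes that load, lock, release or protect cohesin or otherwise act with it. Of these, 10 were called lower, beside 15.0% of all genes, and the other 6 were not called (median log2 fold change -0.48). Fewer were called lower without either miR-128OE library, in refits where fewer of all genes were called lower too. *Sgo1*, shugoshin, which shields centromeric cohesin in mitosis, had 108 and 143 normalized counts in Ctrl and 58.4 and 53.0 in miR-128OE (log2 fold change -1.16, SE 0.224, adjusted p = 0.00462 by edgeR). *Esco2*, the acetyltransferase that modifies SMC3 in S phase, had 145 and 245 in Ctrl and 88.1 and 106 in miR-128OE (-0.97, SE 0.245, adjusted p = 0.0151). *Ddx11*, a helicase that aids cohesion, had 188 and 228 in Ctrl and 112 and 133 in miR-128OE (-0.75, SE 0.168, adjusted p = 0.00908). In all 3 the groups were apart. *Nipbl*, the cohesin loader, which was chosen after its values were seen, had 2500 and 2495 in Ctrl and 1599 and 1649 in miR-128OE (-0.62, SE 0.0756, adjusted p = 0.000471). The X-linked deacetylase *Hdac8*, which recycles SMC3, was not called (0.23, adjusted p = 0.446).

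A list of 7 genes took in proteins of the chromosome axis and partners of condensin, with *Smchd1* added as a related SMC protein. Of these, 5 were called lower, beside 15.0% of all genes, and 2 were not called (median log2 fold change -0.57). *Mki67*, which coats mitotic chromosomes and marks cycling cells, had 2295 and 3177 normalized counts in Ctrl and 1243 and 1222 in miR-128OE, a log2 fold change of -1.15 (SE 0.134, adjusted p = 0.000388 by edgeR). *Kif4*, the X-linked chromokinesin, had 253 and 334 in Ctrl and 155 and 167 in miR-128OE (-0.85, SE 0.160, adjusted p = 0.00405). *Top2a*, the mitotic topoisomerase II, had 1318 and 1617 in Ctrl and 930 and 895 in miR-128OE (-0.68, SE 0.105, adjusted p = 0.00145). Its paralogue *Top2b*, which is also used outside the cell cycle, had 1706 and 1892 in Ctrl and 1879 and 1854 in miR-128OE, overlapping values that were not called (0.05, adjusted p = 0.646). *Akap8*, an anchoring protein that recruits condensin, had 2471 and 2921 in Ctrl and 1754 and 1866 in miR-128OE (-0.57, adjusted p = 0.00218), and *Smchd1*, a noncanonical SMC protein of the inactive X, had 641 and 663 against 425 and 474 (-0.53, adjusted p = 0.00352). *Mcph1*, an inhibitor of condensin II, had 64.0 and 87.6 in Ctrl and 50.5 and 59.7 in miR-128OE and was not called (-0.43, adjusted p = 0.225).

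The third SMC complex, SMC5/6, works in DNA repair. Of its 8 genes, *Smc5* was called lower (15.0% of all genes), *Nsmce2* and *Nsmce3* were called higher (16.5% of all genes), and 5 were not called (median log2 fold change -0.08). *Smc5* had 960 and 1189 normalized counts in Ctrl and 771 and 767 in miR-128OE (log2 fold change -0.48, SE 0.107, adjusted p = 0.00909 by edgeR). *Nsmce2*, its SUMO ligase, had 270 and 277 in Ctrl and 383 and 363 in miR-128OE (0.45, SE 0.112, adjusted p = 0.0143), and *Nsmce3* had 156 and 161 against 207 and 222 (0.44, SE 0.138, adjusted p = 0.0383). Neither of the 2 higher calls held by DESeq2 or without a miR-128OE library, and the *Smc5* call was lost without a miR-128OE library. *Smc6*, the partner of *Smc5*, had 1887 and 1898 in Ctrl and 1750 and 1691 in miR-128OE and was not called (-0.14, adjusted p = 0.193). *Nsmce1* just missed the threshold (0.26, adjusted p = 0.0505), and *Nsmce4a*, *Slf1* and *Slf2* had log2 fold changes between -0.22 and -0.02.

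Of 7 mitotic kinases and cyclins linked to condensin or cohesin, *Ccna2* and *Bub1* were called lower and 5 were not called (median log2 fold change -0.31). That is 2 of 7 beside 15.0% of all genes called lower. *Bub1*, the checkpoint kinase, had 198 and 249 normalized counts in Ctrl and 120 and 134 in miR-128OE (-0.80, SE 0.166, adjusted p = 0.00644 by edgeR), and *Ccna2*, cyclin A2, had 536 and 700 against 432 and 437 (-0.50, SE 0.128, adjusted p = 0.0165). Neither *Ccna2* nor *Bub1* kept its call without miR-128OE library 1. Fewer of the 7 were called lower without miR-128OE library 2 and more without Ctrl library 1. The number of all genes called lower moved the same way in each of these refits.

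**Figure D4:**
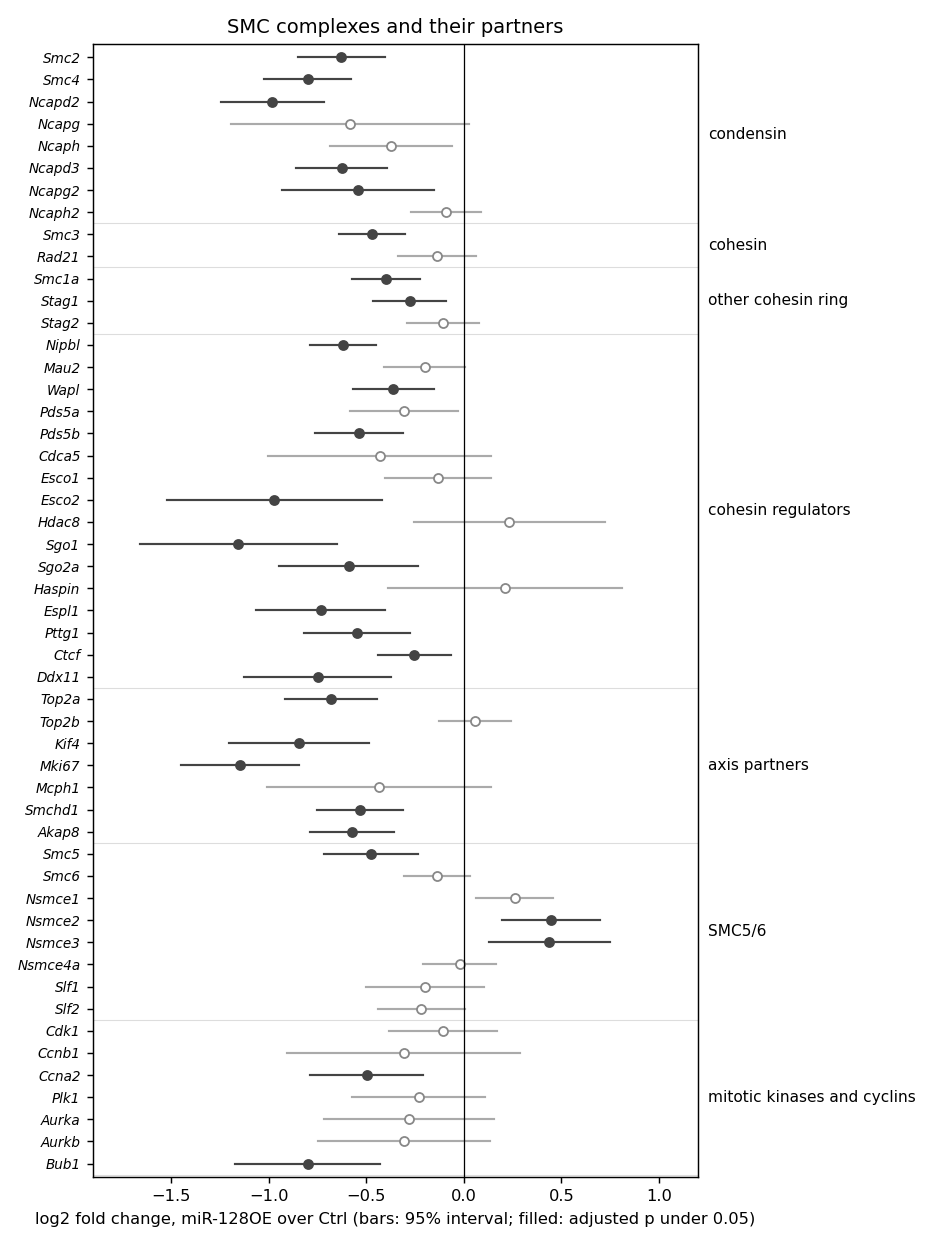
Log2 fold change (miR-128OE over Ctrl) with its 95% interval for the members and the genes of 5 related lists, filled where the adjusted p was under 0.05. The meiotic cohesin genes are not drawn. Most filled points lie below 0, from *Sgo1* at -1.16 upwards, and *Nsmce2* and *Nsmce3* are the filled points above 0.

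Between the libraries of a group, the members did not scatter alike. In Ctrl, 9 of 10 members were higher in library 2 than in library 1 after normalization, and for 5 of them the ratio lay outside counting error by an exact binomial interval. The ratio was 1.21 for *Smc4* (95% interval 1.15 to 1.27), 1.26 for *Ncapd2* (1.17 to 1.37) and 1.72 for *Ncapg* (1.30 to 2.28), and 1.01 for *Smc3* (0.951 to 1.08). *Mki67* was also higher in Ctrl library 2, as given above. In miR-128OE, 5 of 10 members were higher in library 2, and for 3 members the interval did not hold 1. These intervals cover counting error only. The same counts were not made over all genes, so they cannot be read as a trait of the members.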

How the data were processed

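RNA-seq of P7 hearts comprised 2 Ctrl and 2 miR-128OE libraries. The authors aligned reads to mm10 with TopHat2, counted them on known genes and deposited raw counts per Entrez GeneID. Gene models and the handling of strand and of reads with several matches are not given in the sources used here. Of 24454 identifiers, 24381 received a symbol from RefSeq or GENCODE M21 (GRCm38), which also gave exon lengths and 3′UTRs. Depth ranged from 8096870 to 14359838 counts.

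Counts were fitted with edgeR 4.0.16 in R 4.3.3 (filterByExpr defaults, TMM, quasi-likelihood test) without covariates, with Benjamini-Hochberg adjustment over 14266 genes and a threshold of 0.05. Standard errors were taken as |log2 fold change|/√F. The scripts were tested on simulated data. Alternatives were DESeq2 1.42.0, the exact and likelihood ratio tests, other scalings, no filter, autosomal genes alone and each library left out. Summaries used Python 3.11.15 with scipy 1.17.1.

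Members, lists and tests were chosen with earlier results of these data known. All members and all genes of the ring, axis and SMC5/6 lists may be named, and of other lists up to 3 called genes with the largest change and any X-linked gene.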

Additional observations from a re-analysis of the deposited data

How the results depend on the processing

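All 10 members kept a negative log2 fold change in every one of 120 refits (12 alternatives for each member), and 113 kept their side of the threshold. *Ncapg* was called without the filter on low counts (-0.57), and ranged from -0.95 to -0.17 with each library left out. *Ncaph* was called with upper-quartile (-0.42) and total-count scaling (-0.47), and by no other alternative. *Ncapg2* was not called by DESeq2 (-0.55), and ranged from -0.77 to -0.34 with each library left out. Condensin subunits called lower numbered 4 to 6 over all alternatives. Genes called lower were 1410 by DESeq2. With a library left out, the genes called lower ranged from 667 to 2384 and those called higher from 897 to 2654. In the same refits, other ring genes called lower ranged from 0 to 2, cohesin regulators from 3 to 12, mitotic kinases and cyclins from 0 to 4, SMC5/6 genes lower from 0 to 2 and higher from 0 to 3. Other ring genes called lower were 1 by DESeq2 and 1 among autosomal genes alone, where *Smc1a* and *Stag2* are left out. SMC5/6 genes called lower were 3 with total counts, and those called higher were 1 with upper-quartile scaling, 1 with total counts and 0 by DESeq2. The cause was not tested. The ratio of condensin I to condensin II in miR-128OE over Ctrl was 0.672, and 0.864 with the geometric mean of the subunits. It was 0.670 without division by exon length and ranged from 0.607 to 0.752 with each library left out. With choices made after seeing the data it was 0.650 (exons of all annotated transcripts) and 0.793 (*Ncaph* and *Ncaph2* left out). Members with a *miR-128* match were 0 for 8-base matches and 5 with 6-base matches included. No paired analysis was possible because the labels give no replicate numbers that groups share. With 84 to 109 reads per library, *Ncapg* has the widest interval of the members.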
